A study of Homo sapiens with 2 samples.

Results

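The class I antigen presentation genes described here are 9 genes that put peptides from inside the cell on its surface, measured in 2 RNA sequencing libraries of the esophageal squamous cell carcinoma line KYSE30. They were chosen by name: the class I heavy chain genes HLA-B, HLA-C and HLA-E, the light chain gene B2M, the peptide transporter genes TAP1 and TAP2, the loading factor gene TAPBP, and the immunoproteasome genes PSMB8 and PSMB9. All 9 were among the 40392 genes of the deposited tables, and each had 1 row. The mock library came from KYSE30 cells stably transfected with the vector pIRES2-EGFP, and for the RHCG library the stable transfectants carried an expression vector for human RHCG, an ammonia and ammonium transporter of normal esophageal epithelium. Both were total RNA from stable transfectants, and the labels do not say whether a transfectant was 1 clone or a pool. With 1 library per group there was no replicate spread and no test between the groups, so each difference compares these 2 libraries only.

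Class I molecules carry short peptides, cut from the cell's own proteins, to the surface for inspection by CD8 T cells and natural killer cells. The proteasome cuts the proteins, the TAP1 and TAP2 transporter moves peptides into the endoplasmic reticulum, tapasin (TAPBP) bridges the transporter and the empty heavy chain, and the heavy chain leaves for the surface with beta-2 microglobulin. Interferons induce many of these genes, and loss of class I presentation is a known route by which carcinomas escape T cells.

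Values are RPKM, reads per kilobase of transcript scaled to library depth. The depth scaling corresponded to about 18900000 reads (mock) and about 22100000 reads (RHCG). A log2 ratio is log2((RHCG + 1)/(mock + 1)) in RPKM, a gene listed at 0 was set to 1 RPKM, and a gene was called higher or lower at a log2 ratio of 1 or more or of −1 or less. RHCG itself was listed at 0 in mock cells and reached 413 RPKM in RHCG cells. Of 13 squamous epithelial markers 12 were measured, KRT5 being listed at 0 in both libraries, and 5 lay above 0 and 7 below. Of these, 0 were called higher and 3 lower, against 3.30% of all tested genes called lower: KRT6A at 38.8 and 3.51 RPKM (log2 ratio −3.14), KRT13 at 407 and 164 RPKM (−1.31) and SOX2 at 23.1 and 9.62 RPKM (−1.18). EPCAM, at 66.5 and 119.95 RPKM (0.84), and DSG3, at 7.01 and 12.6 RPKM (0.76), had the largest positive ratios of this list. The part of these differences in the values of the class I genes was not tested. Of 13 leukocyte markers, cells that are rich in class I, 12 were listed at 0 in both libraries, PTPRC and CD3E among them, and CD68 was at 15.4 and 8.89 RPKM. Of 10 fibroblast markers 3 were measured (summed level 8.97 and 6.90 RPKM), and of 10 endothelial markers 1 (16.7 and 17.2 RPKM).

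The promoters of these genes are shown because class I promoters join an NF-kB site, an interferon-stimulated response element and CCAAT boxes, the elements through which inflammatory signals, interferons and NF-Y reach them. RefSeq promoter windows (GRCh38.p14) were found for 8 of the 9 genes, HLA-E being the other. Each line gives the 250 bases before the start of transcription, 5′ to 3′, for 3 of the abundant genes and 2 of the less abundant ones. Capitals mark a match on either strand to GAAANNGAAA or its shorter form GAANNGAAA (response element), GGGNNTTNCC (NF-kB) or CCAAT, and matches that overlap run together.
HLA-B (chr6:31357180-31357429, minus strand): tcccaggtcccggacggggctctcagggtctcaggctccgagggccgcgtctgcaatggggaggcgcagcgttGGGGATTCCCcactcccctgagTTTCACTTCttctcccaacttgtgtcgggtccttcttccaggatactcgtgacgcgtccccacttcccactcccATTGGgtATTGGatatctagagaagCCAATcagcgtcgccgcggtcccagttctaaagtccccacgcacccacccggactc
HLA-C (chr6:31272093-31272342, minus strand): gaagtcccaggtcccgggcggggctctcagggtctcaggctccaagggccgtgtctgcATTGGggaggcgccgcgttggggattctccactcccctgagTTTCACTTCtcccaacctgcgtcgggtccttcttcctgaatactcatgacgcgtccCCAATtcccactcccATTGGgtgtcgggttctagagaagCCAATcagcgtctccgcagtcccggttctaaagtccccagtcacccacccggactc
B2M (chr15:44711267-44711516, plus strand): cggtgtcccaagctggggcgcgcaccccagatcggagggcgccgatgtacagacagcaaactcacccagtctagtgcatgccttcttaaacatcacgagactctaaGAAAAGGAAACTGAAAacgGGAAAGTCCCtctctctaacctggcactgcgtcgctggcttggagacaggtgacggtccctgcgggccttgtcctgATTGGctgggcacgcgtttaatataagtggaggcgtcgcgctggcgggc
TAP1 (chr6:32853705-32853954, minus strand): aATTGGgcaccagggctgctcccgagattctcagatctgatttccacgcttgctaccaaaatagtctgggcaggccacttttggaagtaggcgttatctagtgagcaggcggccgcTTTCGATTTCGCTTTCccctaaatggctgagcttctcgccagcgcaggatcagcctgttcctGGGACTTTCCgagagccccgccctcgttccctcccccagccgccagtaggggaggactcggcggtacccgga
TAPBP (chr6:33314079-33314328, minus strand): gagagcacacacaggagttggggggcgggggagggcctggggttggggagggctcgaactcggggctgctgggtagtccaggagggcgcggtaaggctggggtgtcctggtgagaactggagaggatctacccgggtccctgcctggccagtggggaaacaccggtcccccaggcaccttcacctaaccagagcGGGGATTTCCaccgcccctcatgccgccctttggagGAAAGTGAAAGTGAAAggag
The letters GAAANNGAAA were present before B2M, TAP1, TAP2 and TAPBP, 4 of 8 genes, and in 3.71% of all 27305 genes with a window. The shorter form was found before HLA-B, HLA-C and TAP2 and in 8.0% of all genes. In HLA-B and HLA-C it was the same 9 letters, GAAGTGAAA on the strand opposite to the printed one. The NF-kB letters were found before HLA-B, B2M, TAP1 and TAPBP and in 6.14% of all genes. CCAAT was found before 5 of the 8 genes and in 37.0% of all genes. PSMB8 had none of these letters in either of its windows, and PSMB9 had CCAAT only within its 250 bases. The windows of PSMB9 and TAP1 overlap, and their CCAAT matches are the same bases, counted for both genes. The other matches in the printed TAP1 window also lie upstream of PSMB9, beyond its 250 bases. These are reference sequences and not those of KYSE30, and a match is a description of letters, not of a bound site.

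The 9 genes fell into an abundant and a less abundant set. HLA-C was the most abundant, at 209 RPKM in the mock library, followed by B2M at 143, HLA-E at 129 and HLA-B at 110 RPKM. TAPBP was at 30.2, TAP2 at 15.6, TAP1 at 7.73, PSMB8 at 3.73 and PSMB9 at 1.23 RPKM. The heavy and light chain genes thus stood among the more abundant protein-coding genes, HLA-C at rank 230 and HLA-B at rank 520 of 11201 listed in the mock library, and PSMB9 near the bottom at rank 10915. In the RHCG library the order was the same but for HLA-B and HLA-E, which changed places, at 151 and 147 RPKM. The spread between replicates was not measured, so it is not known which neighbours in this order differ beyond it.

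**Figure D1:**
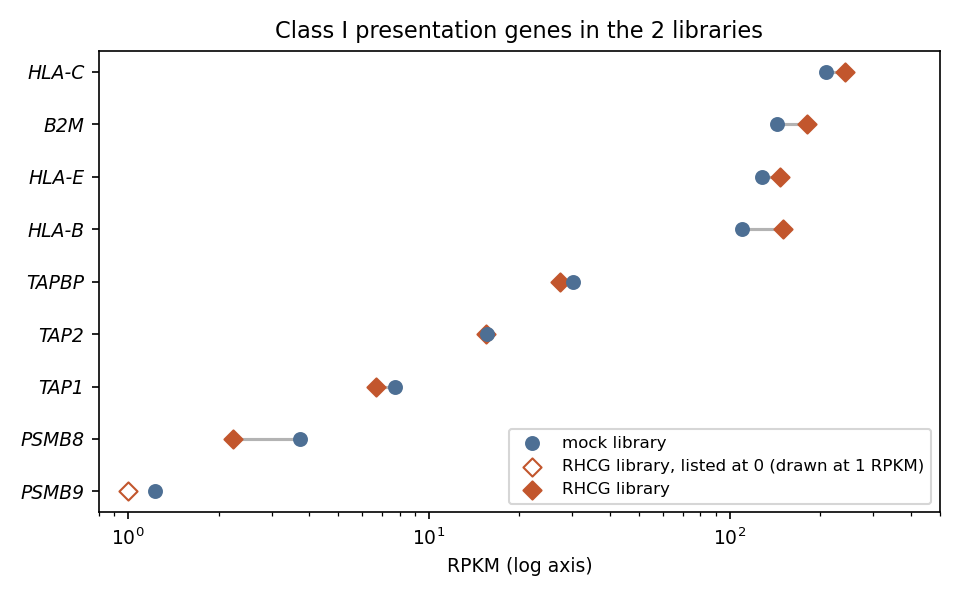
RPKM (log axis) of the 9 class I presentation genes in the mock library (circles) and the RHCG library (diamonds), 1 library each. HLA-C, B2M, HLA-E and HLA-B lie above 100 RPKM in both libraries with the RHCG value to the right, while TAPBP, TAP1 and PSMB8 have the RHCG value to the left and PSMB9 was listed at 0 in the RHCG library.

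No member passed the 2-fold rule in the RHCG library against the mock library. Of 9 members 0 were called higher and 0 lower, against 2.74% and 3.30% of the 12857 genes listed above 0 in at least 1 library. At a fold of 1.5 the counts were also 0 and 0, against 11.3% and 11.5% of all genes. The count of 0 lower depends on the 1 RPKM added. PSMB8, at 3.73 and 2.23 RPKM, had a plain ratio of 0.598, which is more than 1.5-fold lower. The median log2 ratio of the 9 members was −0.00045, beside −0.0054 over all tested genes, with 4 members above 0 and 5 below. At such shares a count of 0 among 9 genes is near the background.

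The 4 members above 0 were the 3 heavy chain genes and B2M, and the 5 below were the transporter, loading and immunoproteasome genes, PSMB9 by the value set for a listed 0 and TAP2 only by a trace (0.13, above 0, once the median of its neighbours is taken away). HLA-B, one of the classical heavy chains that present peptides to CD8 T cells, was at 110 RPKM in mock cells and 151 RPKM in RHCG cells, a log2 ratio of 0.45 or 37.0% more in the plain ratio. It was the member with the largest positive ratio, at the 82.7th percentile of all tested genes. B2M, the light chain that every class I heavy chain needs to reach the surface, was at 143 and 181 RPKM (log2 ratio 0.34). HLA-C, a classical heavy chain and a ligand of natural killer cell receptors, was at 209 and 242 RPKM (0.21). HLA-E, which presents leader peptides of other class I chains to natural killer cells, was at 129 and 147 RPKM (0.19). The RHCG value was the larger one for each of these 4. For comparison, of the 772 genes averaging 100 RPKM or more, 45.3% lay above 0 and the median was −0.06.

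On the other side, TAPBP, which encodes tapasin, was at 30.2 RPKM in mock cells and 27.4 RPKM in RHCG cells (log2 ratio −0.13). The subunit genes of the peptide transporter differed little: TAP2 was at 15.55 and 15.55 RPKM (−0.00045), and TAP1 at 7.73 and 6.70 RPKM (−0.18). PSMB8, the immunoproteasome subunit that replaces PSMB5, was at 3.73 and 2.23 RPKM. Its log2 ratio of −0.55 was the lowest of the 9, at the 12.6th percentile of all tested genes, and its plain ratio was 0.598. PSMB9, which replaces PSMB6, had 1.23 RPKM in mock cells and was listed at 0 in RHCG cells, and no fold is given. A listed 0 can stand for 1 RPKM or less or for a failed estimate, and which of these holds was not tested. KRT5, a keratin that squamous cells generally express, was also at 0 in both libraries. Its fellow marker KRT14 was at 3.31 RPKM in mock cells and 4.21 RPKM in RHCG cells.

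Counting error was small beside the differences of the abundant genes and large for the immunoproteasome. Approximate read numbers, from the shorter of the available exonic lengths, were 3230 and 5155 for HLA-B in the mock and the RHCG library, and 109 and 76 for PSMB8. The approximate 95% exact (Clopper-Pearson) interval of the plain log2 ratio was 0.39 to 0.52 for HLA-B, 0.27 to 0.41 for B2M, 0.16 to 0.26 for HLA-C and 0.14 to 0.24 for HLA-E. It was −0.21 to −0.07 for TAPBP, −0.09 to 0.09 for TAP2, −0.40 to −0.01 for TAP1 and −1.18 to −0.31 for PSMB8. The interval of TAP2 held 0, and that of TAP1 ended just below it. PSMB9 rested on about 18 reads in the mock library. These intervals cover counting error only, and differences between cultures, transfectants or library preparations are not in them.

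**Figure D2:**
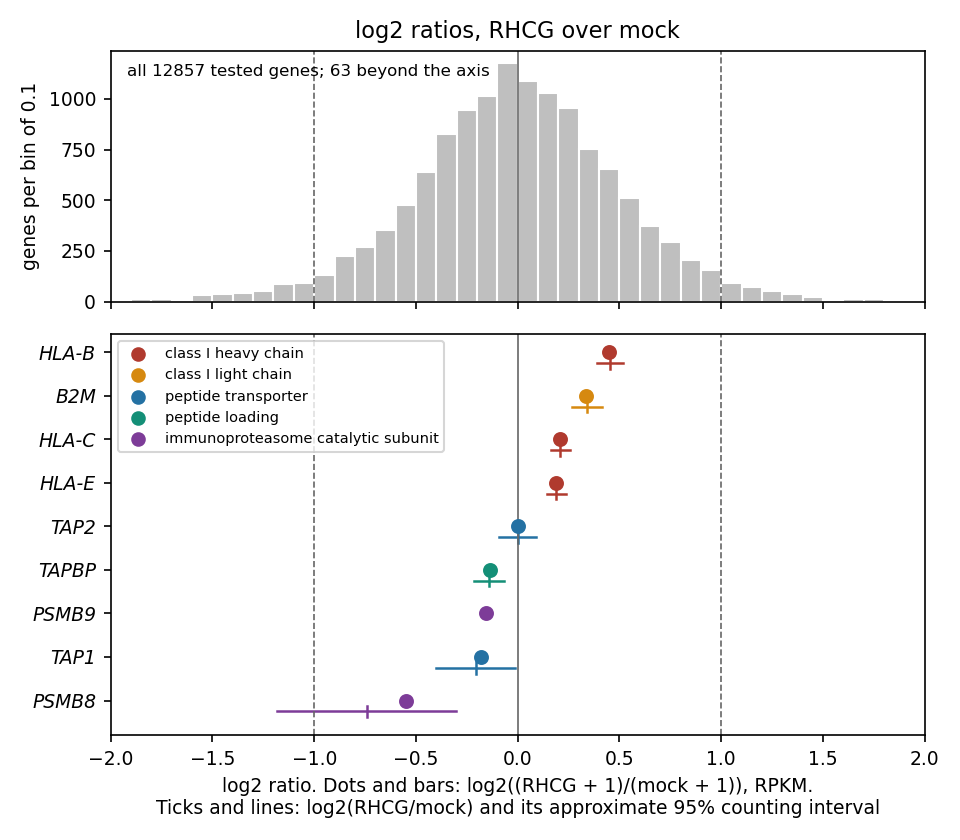
The upper panel counts all 12857 tested genes by log2 ratio of RHCG over mock, with dashed lines at the 2-fold rule, and the lower panel gives the 9 members by role (dots), with the plain log2 ratio (tick) and its approximate 95% counting interval (line). The dots run from −0.55 for PSMB8 to 0.45 for HLA-B, none beyond the dashed lines, and the intervals of the 3 heavy chain genes and B2M lie above 0.

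The non-classical heavy chain genes outside the 9 were less abundant. HLA-F was at 9.67 RPKM in mock cells and 9.52 RPKM in RHCG cells, and HLA-G at 19.5 and 21.9 RPKM. Among the pseudogenes, HLA-H was at 49.6 and 55.7 RPKM, HLA-J at 5.90 and 7.13 RPKM, HLA-L at 1.89 and 3.11 RPKM, and HLA-K was listed at 0 in both. Of these 5 measured genes 4 lay above 0, with a median of 0.16. The count called was 0, near the 2.74% higher and 3.30% lower of all tested genes. Class I genes have near-identical sequences and differ between people, so reads may have been shared among them or lost where the KYSE30 alleles differ from the reference, and single values are uncertain. A sum depends less than a single value on how reads were divided among the genes it holds: HLA-B, HLA-C, HLA-E, HLA-F and HLA-G together were at 477 RPKM in mock cells and 571 RPKM in RHCG cells, 19.7% more. With the pseudogenes the sums were 534 and 637 RPKM, 19.2% more.

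The balance within the pathway differed in some pairs and hardly in others. HLA-B was at 52.7% of the HLA-C level in mock cells and 62.4% in RHCG cells. HLA-E was at 61.5% and 60.6% of HLA-C, so the level of this non-classical chain relative to HLA-C was nearly equal in the libraries. The 5 heavy chain genes summed above were together at 3.33 times the RPKM of B2M in mock cells and 3.15 times in RHCG cells. TAP1 was at 49.7% of TAP2 in mock cells and 43.1% in RHCG cells. These percentages compare levels per length in 1 library each and carry no replicate error.

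PSMB8 and PSMB10 stood below their constitutive counterparts in both libraries, and PSMB9 did in the mock library, the only one with a value for it. PSMB8 was at 4.57% of PSMB5 in mock cells and 4.50% in RHCG cells. Both genes had smaller values in the RHCG library, PSMB5 at 81.6 and 49.5 RPKM (log2 ratio −0.71), so their proportion was nearly equal in the libraries. PSMB8 rested on about 109 and 76 reads, and the counting interval of its plain log2 ratio was −1.18 to −0.31. Its proportions to PSMB5 and PSMB10 are uncertain to that extent. PSMB9 was at 0.908% of PSMB6 in the mock library, PSMB6 being at 136 and 95.6 RPKM (−0.50). PSMB10, the third immunoproteasome subunit and no member of the 9, was at 26.2% of PSMB7 in mock cells and 23.8% in RHCG cells, at 41.4 and 34.0 RPKM against 158 and 143 RPKM. PSMB10 was thus 11.1 times as abundant as PSMB8 in mock cells and 15.3 times in RHCG cells. Among the 9 other proteasome genes listed, which include these 4, 4 lay above 0 and 5 below, with a median of −0.14. The count called was 0, near the 2.74% higher and 3.30% lower of all tested genes. The interferon-inducible activator genes PSME1 and PSME2 had log2 ratios of 0.0054 (45.95 and 46.1 RPKM) and −0.28 (21.2 and 17.2 RPKM), and the assembly factor gene POMP was at 49.0 and 71.5 RPKM (0.54). PSMB10, PSME1, PSME2 and POMP were named after their values were seen.

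**Figure D3:**
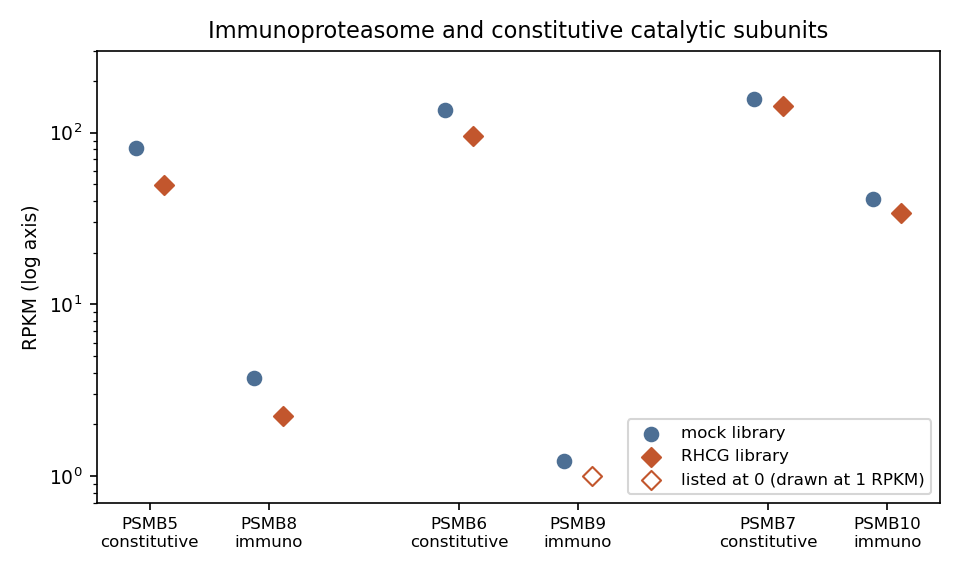
RPKM (log axis) of each constitutive catalytic subunit gene and the immunoproteasome subunit gene that replaces it, in the mock library (circles) and the RHCG library (diamonds). PSMB8 lies more than an order of magnitude below PSMB5 in both libraries, PSMB9 was at 0.908% of PSMB6 in the mock library, and PSMB10 was at 26.2% and 23.8% of PSMB7.

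Genes of peptide loading and trimming had no call in either direction among 7 measured, against 2.74% higher and 3.30% lower of all tested genes. At such shares 0 calls among 7 genes, or among the 6 peptidases below, is near the background. Of these, 6 lay below 0 and 1 above, with a median of −0.16. CALR, the calreticulin chaperone of the loading complex, was at 911 RPKM in mock cells and 624 RPKM in RHCG cells (log2 ratio −0.55), and CANX, calnexin, at 304 and 276 RPKM (−0.14). PDIA3, the thiol oxidoreductase bound to tapasin, was at 51.2 and 52.8 RPKM (0.04), and TAPBPL, a tapasin-related peptide editor, at 8.13 and 7.51 RPKM (−0.10). Of the aminopeptidase genes that trim peptides, ERAP1 was at 13.3 and 11.8 RPKM (−0.16), ERAP2 at 14.9 and 8.18 RPKM (−0.79) and LNPEP at 6.10 and 3.81 RPKM (−0.56). Cytosolic peptidases, which destroy or trim peptides before transport, went mostly the other way: 5 of 6 lay above 0, 0 were called and the median was 0.35. BLMH was at 12.5 and 21.3 RPKM, NRDC at 57.0 and 77.4 RPKM, TPP2 at 4.55 and 6.86 RPKM, LAP3 at 12.96 and 15.8 RPKM and NPEPPS at 20.4 and 23.6 RPKM. THOP1, an oligopeptidase that degrades class I peptides, was the exception, at 76.3 and 42.8 RPKM (−0.82).

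Of 13 transcription regulators of class I genes 12 were measured, CIITA being listed at 0 in both libraries. The count called was 0, near the 2.74% higher and 3.30% lower of all tested genes. The median was 0.06, with 6 above 0 and 6 below. The most abundant were RFXANK, a subunit of the RFX complex that binds class I and class II promoters, at 44.7 and 39.0 RPKM, the NF-kB subunit RELA, at 25.7 and 30.1 RPKM, and NFYC, a subunit of the factor that binds CCAAT, at 16.5 and 18.6 RPKM. Named after their values were seen, NLRC5, the class I transactivator, was at 3.42 RPKM in mock cells and 1.95 RPKM in RHCG cells (log2 ratio −0.58), and RFX5 at 12.97 and 8.69 RPKM (−0.53). IRF1, which activates TAP1 and PSMB9 through their common promoter region, was at 11.3 and 10.1 RPKM (−0.15), IRF2 at 16.5 and 11.4 RPKM (−0.49) and NFYA at 6.71 and 10.6 RPKM (0.59). Of 7 genes that remove or restrain class I molecules 6 were measured and 1 was called higher, against 2.74% of all tested genes. MARCHF4, a ubiquitin ligase that can take class I from the surface, was at 1.66 and 5.41 RPKM (1.27), and the related MARCHF9 at 10.6 and 5.43 RPKM (−0.85). TMEM129, TMEM127, WWP2 and SPPL3 had log2 ratios between −0.07 and −0.02, and SUSD6 was listed at 0 in both libraries.

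Interferon response genes were set beside the members, since many class I genes are interferon targets too. Of 28 genes of the type I interferon response 20 were measured, and the median log2 ratio was −0.73. Of the measured ones 8 were called lower and 0 higher, against 3.30% and 2.74% of all tested genes. OASL was at 41.0 RPKM in mock cells and 1.88 RPKM in RHCG cells, ISG15 at 199 and 88.9 RPKM, and OAS1, OAS3, IFIT1, IFIT2, IFIT3 and IFI44 were the others called lower. IFIT1 was at 4.60 and IFI44 at 13.4 RPKM in mock cells, and both were listed at 0 in RHCG cells. The calls of IFIT1 and IFI44 thus rest on the value set for a listed 0. Among the abundant ones, LGALS3BP was at 59.4 and 60.3 RPKM and IFITM3 at 32.0 and 32.1 RPKM. Of 26 genes of the interferon gamma response, receptor and kinase genes included, 17 were measured, 7 above 0 and 10 below. Among them 1 gene was called in each direction, against 2.74% higher and 3.30% lower of all tested genes. The median of −0.03 was that of GBP1, named after its values were seen, and rests on the value set for a listed 0. GBP1 was at 1.04 RPKM in mock cells and listed at 0 in RHCG cells. CD274, which encodes the checkpoint ligand PD-L1, was called higher, at 1.52 and 4.90 RPKM (1.23), and TRIM21, a cytosolic antibody receptor, was called lower, at 10.2 and 2.77 RPKM (−1.58). JAK1 was at 41.3 and 68.7 RPKM, WARS1 at 40.8 and 49.1 RPKM and the receptor gene IFNGR2 at 19.99 and 19.75 RPKM, while CXCL9, CXCL10, CXCL11 and IDO1, named after their values were seen, were listed at 0 in both libraries. The difference between the class I members and either interferon list was not tested, since there was 1 library per group.

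**Figure D4:**
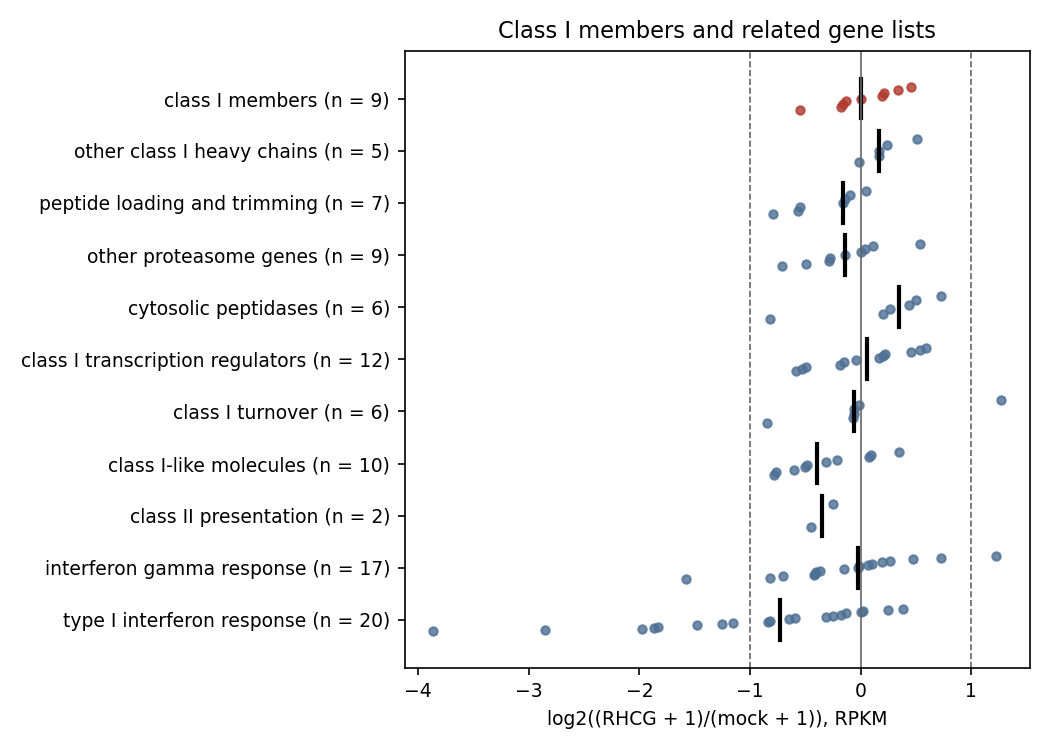
Log2 ratio (RHCG over mock, horizontal axis) for every measured gene of a list (dots) with the list median (black bar), and dashed lines at the 2-fold rule. The class I members lie between −0.55 and 0.45, while the type I interferon response runs down to −3.87 with a median of −0.73.

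Class II presentation, which shows peptides from outside the cell to CD4 T cells, was mostly listed at 0. Of its 14 genes 12 were listed at 0 in both libraries, HLA-DRA and CD74 among them, and the others were HLA-DOB at 1.39 and 1.01 RPKM and IFI30, a lysosomal thiol reductase, at 24.1 and 17.4 RPKM. Of 14 class I-like molecules 10 were measured, with 3 above 0, 7 below and a median of −0.40. The count called was 0, near the 2.74% higher and 3.30% lower of all tested genes. MICA, a stress ligand of natural killer cells, was at 34.4 and 19.9 RPKM (log2 ratio −0.76), its relative MICB at 15.6 and 13.3 RPKM (−0.21) and ULBP2 at 8.70 and 9.35 RPKM (0.09).

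Except for B2M, on chromosome 15, the members lie in the major histocompatibility complex on chromosome 6, and the levels were set beside those of their neighbours in the RefSeq gene order (GRCh38.p14). From HLA-E to TAPBP there were 82 measured protein-coding genes, 8 of them members. The other 74 had a median log2 ratio of −0.12, with 24 above 0 and 50 below. Among these 74, 5 were called lower and 0 higher, against 3.30% and 2.74% of all tested genes. The 5 were TUBB, the heat shock genes HSPA1L, HSPA1A and HSPA1B, and EHMT2, a histone methyltransferase gene, all named after their values were seen. HLA-C and HLA-B are next to each other in this order, both above 0, between TCF19 at 25.8 and 13.5 RPKM (−0.88) and MICA at −0.76. HLA-E lay between RPP21 (−0.19) and GNL1 (0.11). TAP2, PSMB8, TAP1 and PSMB9 form a run of neighbours, all at or below 0, flanked by HLA-DOB (−0.25) and BRD2, a chromatin reader gene at 55.7 and 57.2 RPKM (0.04). TAPBP lay between RGL2 (−0.05) and ZBTB22 (−0.08). The second neighbours of these members not named so far had log2 ratios of −0.52 (CCHCR1), −0.23 (TRIM39-RPP21), 0.37 (PRR3), −0.22 (GPSM3), −0.67 (RXRB), 0.12 (PFDN6) and −0.07 (DAXX). On chromosome 15, B2M lay between SPG11 (0.25) and SORD (0.22), and EIF3J (0.44) and AFG2B (0.14) came next on either side. With the median ratio of the 51 nearest genes taken away, HLA-B was at 0.54, HLA-C at 0.30, HLA-E at 0.25 and B2M at 0.29, and TAP2 was at 0.13, TAPBP at −0.00056, TAP1 at −0.05 and PSMB8 at −0.42.

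**Figure D5:**
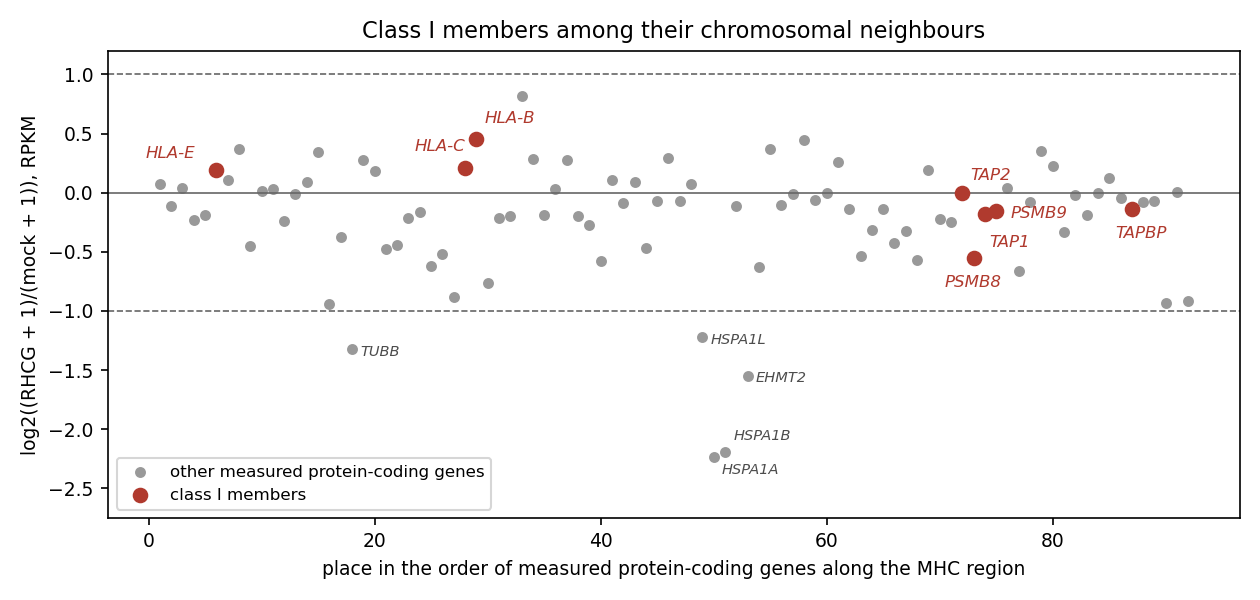
Log2 ratio of RHCG over mock (vertical axis) of measured protein-coding genes in their order along the major histocompatibility complex (horizontal axis, place in the order), with the class I members in red and dashed lines at the 2-fold rule. HLA-E, HLA-C and HLA-B lie above 0, and the non-member genes from HLA-E to TAPBP have a median of −0.12. The run from TAP2 to PSMB9 lies at or below 0, and 5 other genes lie beyond the lower line.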

How the data were processed

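Each group gave 1 library, made with an Ion Total RNA-Seq kit from total RNA after removal of ribosomal RNA, per the labels' protocols. The authors deposited 1 table per library of 40448 rows by Entrez gene, headed RPKM, whose values are log2 values of RPKM with none below 0. The submitters' processing notes name bedtools 2.25.0 and the build hg19. Aligner and counting method: not given in the sources used here. Values were unlogged, and rows with a copy suffix (112, none of a member) were summed to 40392 genes.

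Depth came from the steps of small RNA genes, of which 25.8% (mock) and 38.2% (RHCG) of values under 20 reads lay within 0.01 reads of a whole number, so counts could not be recovered. Halved steps matched 26.4% and 42.8% of these values, so read numbers may be too low. Lengths were GENCODE release 29 exonic lengths, the smaller of all transcripts and RefSeq-matched ones, and the authors' own lengths are not known. Symbols, gene order and promoters came from RefSeq (GRCh38.p14).

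The members and the 10 pathway and 4 marker lists were chosen with earlier results of these data known. Named genes were RHCG, all members, each pathway list's genes where fewer than 8 were measured, otherwise its called genes and 3 most abundant, and 2 measured neighbours on each side of a member; marker genes are named as a check of the cell type, and others are marked in the text. Some genes are not reported here, and the lists and their counts leave them out. Software was scipy 1.17.1, numpy 2.4.6, pandas 2.3.3 and matplotlib 3.10.9 under Python 3.11.15.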

Additional observations from a re-analysis of the deposited data

How the results depend on the processing

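No paired analysis was possible because each group had a single library, which also means that none could be omitted. Of the 9 alternatives, 4 can alter the ratio of a member listed in both libraries: 0.1 RPKM added, both scalings and the neighbour shift removed. Under these 4 HLA-B, HLA-C, HLA-E and B2M stayed above 0, from 0.18 (HLA-E) to 0.54 (HLA-B), and TAP1, TAPBP and PSMB8 stayed below 0, TAPBP at −0.00056 with the neighbour shift removed. The sign of PSMB9 follows from the value set for a listed 0 and says nothing of stability. TAP2 ran from −0.01 to 0.13 and was above 0 with the neighbour shift removed. The median of the members was 0.19 once genes averaging under 5 RPKM were dropped, both immunoproteasome genes among them, and 0.13 with the neighbour shift removed. With genes listed at 0 set to 0 RPKM, 1 member was called lower, PSMB9 at −1.16, by the floor alone.

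Among the lists, setting genes listed at 0 to 0 RPKM gave 1 class I-like molecule higher and 1 lower, 2 interferon gamma response genes higher and 3 lower, and 1 type I interferon response gene higher. A mean of at least 5 RPKM left 0 turnover and 0 interferon gamma response genes called higher (MARCHF4 and CD274 fall out) and put the type I interferon median at −1.15. Without a filter the medians of class I-like molecules and the type I interferon response were −0.11 and −0.22, by the added genes at 0. A fold of 1.5 gave 1 lower gene in each of loading and trimming, proteasome, peptidase and turnover genes, 1 higher peptidase and 1 higher regulator gene, 3 lower class I-like molecules, and 2 higher and 3 lower interferon gamma response genes. Over all tested genes that fold called 11.3% higher and 11.5% lower, so a count of 1 in such a list is near the background. A value of 0.1 RPKM added gave 2 lower interferon gamma response genes. Removing the neighbour shift left 0 lower there (TRIM21 at −0.88) and put the loading and trimming median at −0.27. The 8 lower type I interferon response genes became 7 with it (OAS3 at −0.99), 7 with a mean of at least 5 RPKM (IFIT1 falls out) and 12 at a fold of 1.5. No called value turned its sign. Depth limits PSMB8 and PSMB9 most, and values near 1 RPKM cannot be told from a listed 0.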

Other observations

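Beyond the genes of peptide presentation, 2 genes of natural killer cell ligands had a value in 1 library each. ULBP1 was listed at 0 in mock cells and at 1.55 RPKM in RHCG cells, while RAET1G was at 1.49 RPKM in mock cells and listed at 0 in RHCG cells. ULBP3 was at 5.54 and 3.60 RPKM (log2 ratio −0.51). Of the other class I-like molecules, HFE, which regulates iron uptake, was at 8.99 and 4.80 RPKM (−0.79), and PROCR, the endothelial protein C receptor, at 7.14 and 4.37 RPKM (−0.60). In the interferon gamma response, the guanylate-binding protein gene GBP3 was at 10.6 and 6.10 RPKM (−0.71) and PARP9 at 4.13 and 1.90 RPKM (−0.82). These genes were named after their values were seen.

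Within the major histocompatibility complex, the measured gene with the largest positive ratio between HLA-E and TAPBP was NFKBIL1, at 19.3 RPKM in mock cells and 34.7 RPKM in RHCG cells (log2 ratio 0.82). The largest values in the other direction belonged to the near-identical heat shock genes HSPA1A, at 1018 and 215 RPKM, and HSPA1B, at 950.4 and 206 RPKM.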
